A study of Mus musculus with 209 samples.

Results

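The 5 serpins of leukocytes, Serpina3f, Serpina3g, Serpinb1a, Serpinb6b and Serpinb9, were followed through 209 RNA-seq libraries of sorted mouse immune cells. They are 5 of the 55011 gene symbols counted and 5 of the 69 symbols that start with Serpin. The genes were chosen by their measured response to cytokines in the screen described next, so their fold changes and calls there are given as a description, with no p, and nothing is supported by them. Whether the time course and the LPS experiment entered that choice is not stated in the sources used here.

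All libraries came from C57BL/6 mice aged 5 to 8 weeks, with no genotype difference between groups, and each was made from about 1000 cells sorted 2 times in a row. In the screen, 1 of 3 cytokines (5 µg of TNFa, IL6 or IL1b dissolved in 120 µL PBS) was injected by vein, with PBS as the control, and cells were taken at 2 h. There were 14 cell types. The myeloid types were macrophages (MFpc) and mast cells (MC) of the peritoneal cavity and, by the library titles from the spleen, red pulp macrophages (MFrp), monocytes with Ly6C (Mo.6C+), neutrophils (GN), dendritic cells with CD8 (DC.8+) and plasmacytoid ones (pDC). The lymphoid types, all splenic by title, were natural killer cells (NK), T cells of the gamma-delta (Tgd), regulatory (Treg), CD4 (T.4) and CD8 (T.8) kinds, and B cells of the marginal zone (MZB) and the follicle (B.fo). Each PBS group had 4 or 5 libraries and each cytokine group 2 or 3, and pDC had no IL1b group. In a time course of 20 libraries, Mo.6C+ and MFpc were taken 2, 4, 8 and 24 h after TNFa and 24 h after PBS, with 2 libraries per group. In an LPS experiment, 3 Mo.6C+ libraries from mice given 1 ng of LPS in 120 µL of PBS, and 3 from control mice, were compared at a time the labels do not give. The labels leave out if the libraries in a group are from different mice, so p-values measure only the spread between these libraries, which may be technical.

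Serpins are protease inhibitors that offer a protease a bait loop, are cut by it and then hold it in a dead complex. Clade A members such as Serpina3g are related to antichymotrypsin, and Serpina3g (also called Spi2A) is known as an intracellular inhibitor of cysteine cathepsins. Clade B members stay in the cytosol and nucleus: Serpinb1a inhibits the neutrophil proteases elastase, cathepsin G and proteinase 3, Serpinb6b inhibits granzyme A, and Serpinb9 (also called Spi6) inhibits granzyme B. In leukocytes these inhibitors are known for protecting the cell from proteases that leak from its own granules or lysosomes.

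The positions below are those of the GENCODE vM21 annotation of GRCm38 (mm10), and none of the members overlapped another annotated gene. Serpina3f lay on chromosome 12 from 104214544 to 104221129 and Serpina3g from 104236245 to 104241939, both on the plus strand and next to each other in a cluster of Serpina3 genes. Serpinb1a lay on chromosome 13 from 32842092 to 32851185 on the minus strand, Serpinb6b from 32965209 to 32979067 and Serpinb9 from 33003250 to 33017957, both on the plus strand. The promoter windows of Serpina3f, Serpina3g and Serpinb9 are shown because these genes had the broadest responses to TNFa among the members; each is the 250 bases before a RefSeq start site (GRCm38.p6, plus strand, 5′ to 3′). The windows are chr12:104214294-104214543 for Serpina3f (the first of its 2 start sites in the table), chr12:104235897-104236146 for Serpina3g and chr13:33004291-33004540 for Serpinb9. The RefSeq start of Serpinb9 lies downstream of its GENCODE start at 33003250, so its window lies inside the GENCODE gene. The window of Serpinb6b, given below, runs past its GENCODE start. Capitals mark matches, on either strand, to the NF-kB consensus, to TTCNNNGAA (the palindrome bound by STAT factors) or to GAAANNGAA (a pattern bound by IRF factors). In Serpina3f the last 2 patterns overlap in 1 run of capitals.
Serpina3f: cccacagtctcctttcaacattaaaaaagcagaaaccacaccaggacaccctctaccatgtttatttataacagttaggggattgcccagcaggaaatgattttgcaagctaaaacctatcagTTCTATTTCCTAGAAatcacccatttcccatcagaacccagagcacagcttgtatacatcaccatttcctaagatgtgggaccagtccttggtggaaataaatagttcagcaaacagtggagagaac
Serpina3g: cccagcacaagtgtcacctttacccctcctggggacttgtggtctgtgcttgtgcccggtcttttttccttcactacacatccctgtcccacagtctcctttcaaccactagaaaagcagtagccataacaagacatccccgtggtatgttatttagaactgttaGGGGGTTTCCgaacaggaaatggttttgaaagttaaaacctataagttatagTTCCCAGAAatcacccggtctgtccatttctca
Serpinb9: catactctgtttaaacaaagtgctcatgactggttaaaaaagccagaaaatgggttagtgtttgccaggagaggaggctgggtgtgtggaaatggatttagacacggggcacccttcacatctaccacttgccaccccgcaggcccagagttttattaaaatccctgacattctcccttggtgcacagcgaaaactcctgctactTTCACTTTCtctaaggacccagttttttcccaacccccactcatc
Serpina3g held 1 match to the NF-kB consensus, 85 to 76 bases before its start, and 1 to TTCNNNGAA. The window of Serpina3f held 1 match to TTCNNNGAA and 1 to GAAANNGAA, and that of Serpinb9 held 1 to GAAANNGAA. No match to these 3 patterns was found in the window of Serpinb6b, chr13:32965011-32965260; of 32851 windows of this length in the table, 3.9% held the NF-kB consensus, 7.02% TTCNNNGAA and 7.13% GAAANNGAA. A stretch of Serpina3g (163 to 18 bases before its start) aligned with one of Serpina3f (250 to 106 bases before) over 147 columns, with 81% identity. Counted from 1 at the 5′ end of each site and with the base of Serpina3g first, the NF-kB match of Serpina3g carried G5A and T8G at the aligned place in Serpina3f, and the TTCNNNGAA match carried C5T. These letter matches are a description of the windows and show neither binding nor a cause.

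Serpina3f and Serpina3g have near-identical copies, and how reads that match several genes were counted is not given in the sources used here. Of all runs of 25 bases in the GENCODE transcripts of Serpina3f, 33.6% also occurred in transcripts of other genes, most often Serpina3g (19.5%), Serpina3h (14.2%) and Serpina3i (12.7%). For Serpina3g the share was 34.7%, for Serpinb1a 14.9% (Serpinb1b and Serpinb1c), for Serpinb6b 11% (mostly Serpinb6c) and for Serpinb9 9% (mostly Serpinb9b). For runs of 50 bases, the shares fell to 10.6% for Serpina3f, 15.5% for Serpina3g, 2.81% for Serpinb1a, 2.92% for Serpinb6b and 0.378% for Serpinb9. The split of counts between Serpina3f and Serpina3g is therefore uncertain. All Serpina3 counts were also summed and tested, but the same summed row stands for both genes and cannot check that split.

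Libraries held 1094567 to 9291121 counts in all. Lists of 8 marker genes per cell type (5 of the 8 in the table for Tgd), averaged as log2 CPM (the count scaled to a library of fixed size, "counts per 1e6"), were highest in the labelled cells for 12 of 14 types. T.4 shared its list with Treg (8.83 to 9.43 in T.4, up to 9.18 in Treg), and B.fo shared the B cell list with MZB. Markers of other cells varied between libraries, and 11 libraries that stood apart by these markers (MFrp PBS 1 to 3, DC.8+ PBS 4 and 5, IL1b 2, IL6 3 and TNFa 2, NK IL1b 1, Tgd IL1b 1, MC IL6 3) were left out in an alternative chosen after seeing the data. The NK list ran from 0.33 to 6.20 in DC.8+ and from 3.23 to 7.40 in MFrp, and the red cell list was 10.69 to 11.71 in MFrp PBS 1 to 3 against 6.30 to 9.48 in the other MFrp libraries. Their part in the results was not tested beyond that alternative.

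In mice given PBS, each serpin had its own order of cell types. Levels here are CPM scaled over all PBS libraries by TMM (trimmed mean of M values), given as mean ± SD. Serpinb1a was highest in mast cells, at 10573 ± 1157 CPM (n = 4), with every library between 9512 and 11995. It followed in MFpc at 681 ± 105 (n = 5), B.fo at 490 ± 38.3 (n = 5) and MZB at 181 ± 7.54 (n = 4), and no 2 neighbours among these 4 types overlapped. The lowest levels of Serpinb1a were 0.0844 in T.4 and 0.989 in NK. Neutrophils lay between, with a wide spread of 37.3 to 451 CPM and a median of 57.5.

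Serpinb6b and Serpinb9, the granzyme inhibitors, were both highest in NK cells, a cell type known for granules loaded with granzymes. Serpinb6b reached 657 ± 86.8 CPM in NK (n = 5) and 539 ± 266 in DC.8+ (n = 4), which overlapped, ahead of Tgd at 126 ± 21.8 (n = 5). Serpinb9 reached 742 ± 77.9 CPM in NK, above DC.8+ at 315 ± 112 and MFrp at 78 ± 10.4 with no overlap at either step. From MFrp downward, neighbouring types overlapped at every step for Serpinb9. MFpc, GN and Mo.6C+ had mean Serpinb6b levels of 0.616, 0.605 and 1.98 CPM.

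Serpina3g was similar in MFrp (189 ± 61.8 CPM), DC.8+ (182 ± 39), NK (179 ± 32.9) and MZB (150 ± 20.6), neighbours that overlapped. Its level was 66.5 ± 15.8 in B.fo and 63.3 ± 8.02 in Tgd, and under 1 CPM on average in T.4, MFpc, MC and GN. Serpina3f was highest in MFrp, where all 5 libraries (35.7 to 93.8 CPM) lay above the 5 NK libraries (12.6 to 34.3). In MC and T.4 no PBS library had a count of Serpina3f. Per kb of exon length, so that genes can be compared, Serpina3g stood at 84.8 and Serpina3f at 8.56 CPM per kb in NK, Serpinb6b at 290 and Serpinb9 at 212, while Serpinb1a stood at 4591 in MC. Exon length does not correct for the uncertain split of counts between Serpina3f and Serpina3g.

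**Figure D1:**
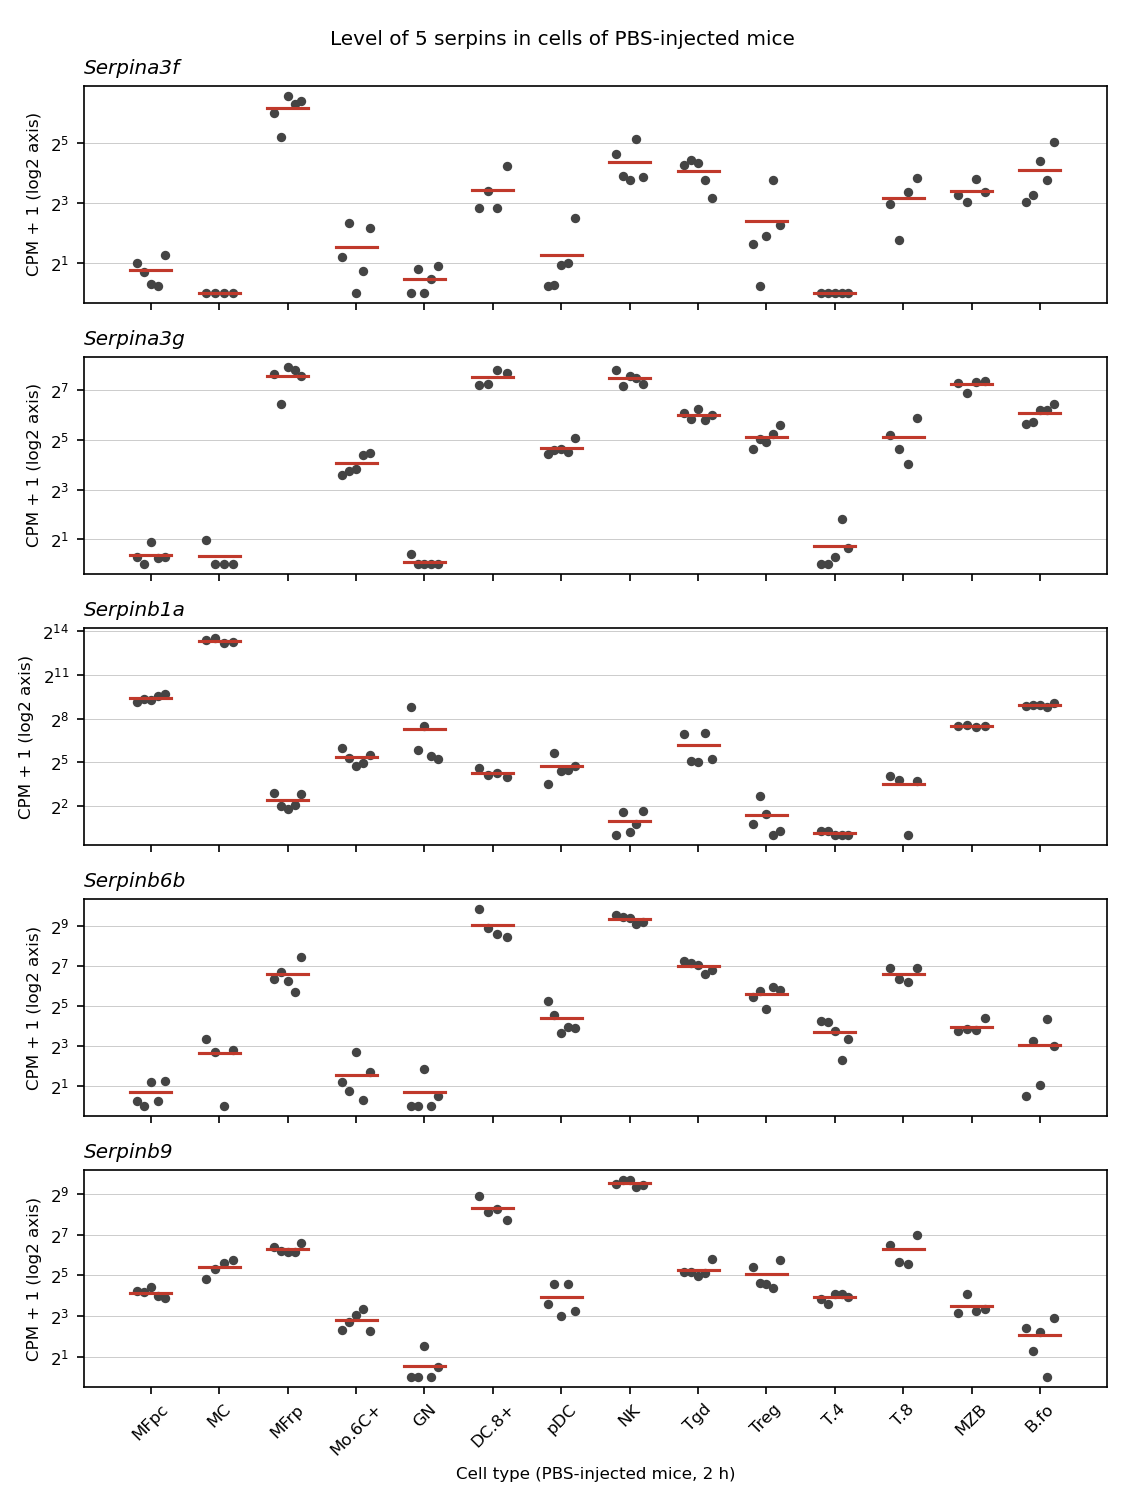
Level of each serpin in PBS-injected mice by cell type, as CPM + 1 on a log2 axis; each point is 1 library and each red line a mean over 4 or 5 libraries. Serpinb1a in MC lies between 9512 and 11995 CPM in all 4 libraries, far above the other types, while Serpinb6b and Serpinb9 have their highest means in NK.

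In the screen, IL1b and TNFa each raised all 5 serpins in some cell types, and IL6 raised 4 of them in few. A member is called where edgeR's quasi-likelihood test gave an adjusted p under 0.05 over all genes tested in that cell type. Of 205 pairs of a member and a comparison, 181 had enough counts to be tested and 73 were called, 69 of them higher and 4 lower than with PBS. The calls were 30 of 57 with IL1b, 8 of 62 with IL6 and 35 of 62 with TNFa. Over all cell types, 10%, 2.41% and 16.2% of all genes tested were called, shares that also belong beside the counts per member below. The members were chosen on these contrasts, so nothing is read from the gap. The groups did not overlap in 71 of the 73. A call in groups this small favours groups that lie apart, and no such share over all genes is given here, so nothing is read from that number. Since members low in every group were not tested, these counts cover tested members only. The 3 cytokines share the PBS libraries of a cell type, and no comparison between cytokines is drawn from these counts.

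The calls fell in 12 of the 14 cell types. Each count below stands beside the share of all genes called in that comparison, and since the members were chosen on these contrasts, nothing is read from the gap between them. In MFpc, IL1b moved 3 of 4 tested members, IL6 1 and TNFa 4, where 37.3%, 15.3% and 53.4% of all genes were called. MFrp had 2, 2 and 3 of 5 called with IL1b, IL6 and TNFa, against 10.9%, 0.387% and 21.6%. For Mo.6C+ the counts were 3, 1 and 4 of 5, against 37%, 5.87% and 48.7%. GN had only Serpinb1a tested, and it was called with each cytokine, against 22.4%, 9.51% and 37.5%. In DC.8+, 3, 1 and 4 of 5 were called, against 4.82%, 0.107% and 15.5%. Plasmacytoid dendritic cells had 0 of 5 with IL6 and 3 of 5 with TNFa, against 0.154% and 14.4%.

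Among lymphocytes, the share of all genes called was at most 15.6%. NK cells had 4 of 5 members called with IL1b, 0 with IL6 and 4 with TNFa, against 3.39%, 0% and 15.6% of all genes. At an unadjusted p under 0.05, IL6 gave 980 genes, 2 of them members, while DESeq2 called 34, none of them a member. In Tgd, 3, 0 and 3 of 5 were called against 2.14%, 0.0147% and 3.42%. Regulatory T cells had 4, 0 and 4 of 5 against 3.28%, 0.494% and 5.1%. CD4 T cells had 3, 2 and 1 of 4 against 5.96%, 2.8% and 6.56%. In MZB, 3, 0 and 3 of 5 were called against 3.96%, 0.218% and 2.74%, and in B.fo 1, 0 and 1 of 5 against 1.09%, 0.394% and 3.51%. No member was called in T.8, against 0.581%, 0.151% and 0.481%, or in MC (3 members tested), against 2.19%, 0.425% and 3.99%. In T.8, edgeR gave 5 of 15 pairs an unadjusted p under 0.05 and DESeq2 called none; in MC these were 3 of 9 and none.

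**Figure D2:**
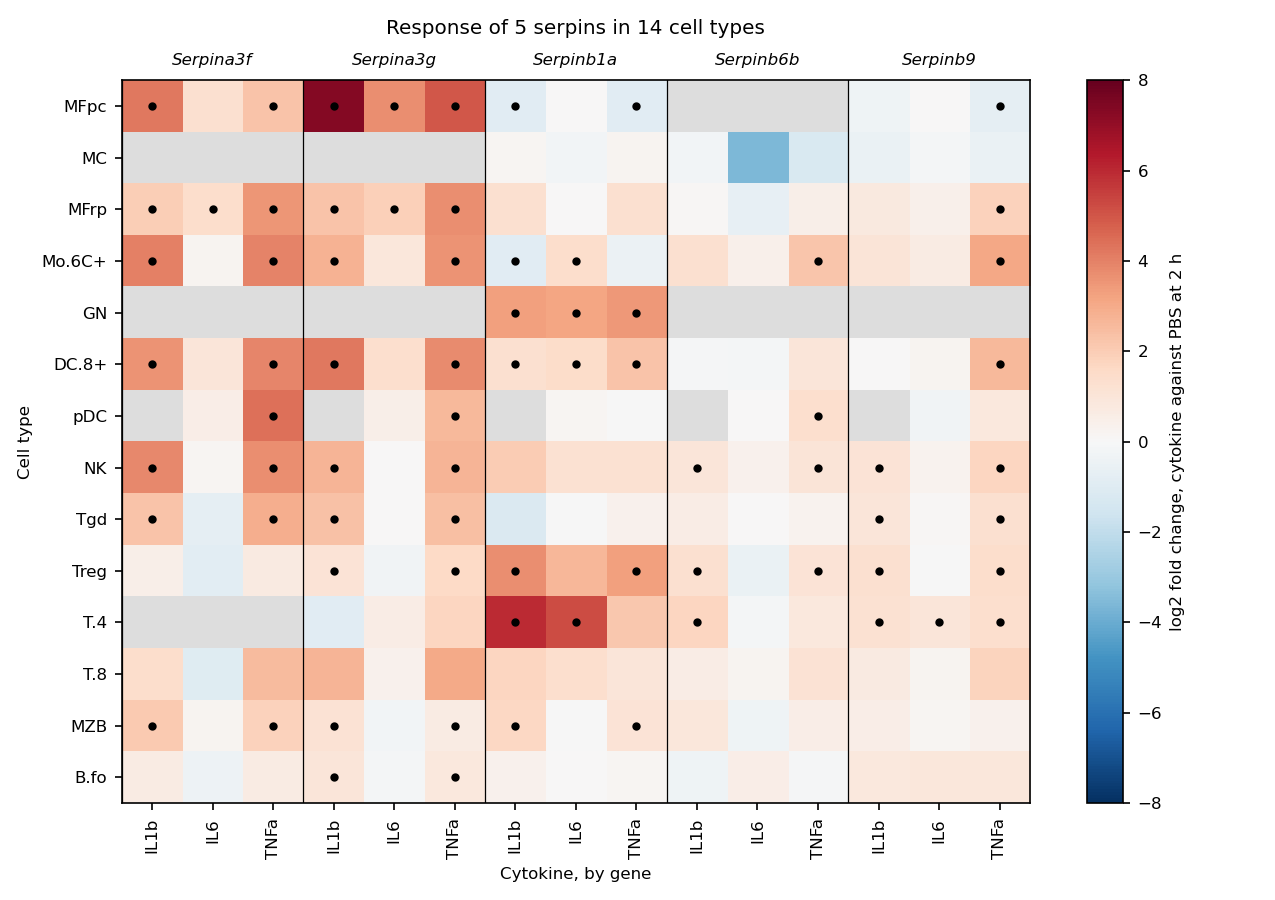
Log2 fold change of each serpin with IL1b, IL6 or TNFa against PBS at 2 h, by cell type, from blue (lower) to red (higher); dots mark the 73 calls and grey cells were not tested. The IL1b and TNFa columns of Serpina3f and Serpina3g are red in most cell types, whereas Serpinb1a is blue in MFpc and red in GN, Treg and T.4.

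Serpina3g, the cathepsin inhibitor, was the member called most often: it rose with IL1b in 9 of 11 tested cell types, with IL6 in 2 of 12 and with TNFa in 10 of 12, and fell in none. CPM from here on are scaled within the fit of each cell type, so a PBS library differs slightly from the values above. In MFpc its 5 PBS libraries held 0, 0.12, 0.14, 0.143 and 0.607 CPM (7 counts in all), and its 3 IL1b libraries 27.9, 31.7 and 42.9. Over summed counts this was a ratio of 175 to 1, with an exact 95% interval of 84.4 to 437 for counting error only. With TNFa the MFpc libraries reached 4.04, 7.42 and 8.77 CPM (34.4 to 1, interval 16.2 to 87.6) and with IL6 1.21, 2.59 and 4.66 (13.8 to 1, interval 6.31 to 35.8). Leaving out PBS library 3, the highest, moved the fitted log2 fold change of Serpina3g from 7.32 to 8.14 with IL1b, from 4.98 to 5.80 with TNFa and from 3.70 to 4.52 with IL6. Thus a gene near 0 in resting peritoneal macrophages was present in all 9 cytokine libraries, at a low level with IL6 and TNFa. In bulk libraries a change in RNA per cell and a change in the number of expressing cells cannot be told apart.

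The highest absolute levels of Serpina3g came in dendritic cells and red pulp macrophages. DC.8+ held 130, 132, 180 and 198 CPM with PBS, 2695 and 3286 with IL1b, and 1548, 2122 and 2909 with TNFa. The lowest IL1b or TNFa library was thus far above the highest PBS library. The IL6 libraries, at 229, 492 and 505 CPM, lay above PBS without overlap but were not called (log2 1.35 ± 0.27). The log2 fold changes were 4.23 ± 0.31 (SE) with IL1b and 3.78 ± 0.29 with TNFa, or 4.35 and 4.07 without the libraries that stood apart. The CD8+ dendritic cell list in DC.8+ was 8.07 to 9.11 with PBS, 8.57 to 8.66 with IL1b, 8.01 to 8.73 with IL6 and 6.99 to 7.90 with TNFa. It was thus lower with TNFa than with PBS without overlap, and its part in the TNFa values of Serpina3f, Serpina3g, Serpinb1a and Serpinb9 in DC.8+ was not tested. In MFrp, PBS gave 78.2, 177, 188, 211 and 225 CPM, TNFa 1878, 2087 and 2920 (log2 3.71 ± 0.28), IL1b 790, 792 and 1024 (2.30 ± 0.27) and IL6 539, 679 and 796 (1.93 ± 0.27). The 3 cytokine groups of MFrp lay above PBS without overlap. Without the PBS libraries rich in red cell markers the values were 3.49, 2.08 and 1.75.

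In NK, Serpina3g went from 163, 170, 199, 205 and 253 CPM with PBS to 1209, 1298 and 1405 with IL1b and 1085, 1331 and 1464 with TNFa (log2 2.72 ± 0.14 and 2.71 ± 0.14). Its 2 NK libraries with IL6 held 163 and 236 CPM, inside the PBS range. Tgd rose by 2.35 ± 0.13 with IL1b and 2.40 ± 0.13 with TNFa, Mo.6C+ by 2.80 ± 0.29 and 3.61 ± 0.30, and pDC by 2.62 ± 0.18 with TNFa. Smaller changes were called in Treg (1.07 ± 0.26 and 1.61 ± 0.26), MZB (1.15 ± 0.17 and 0.63 ± 0.17) and B.fo (0.94 ± 0.19 and 0.87 ± 0.19). The MZB call with TNFa ended when any of its 7 libraries was left out, and the Treg call with IL1b when any of 5 libraries was left out (IL1b 1 to 3, PBS 1 or 3) or when all Serpina3 counts were summed (log2 0.94). In B.fo the IL1b call ended without IL1b library 2 or 3, and the TNFa call without TNFa library 1.

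In T.8, Serpina3g was uneven between libraries and was not called. The IL1b libraries held 150, 552 and 78.3 CPM and the 2 TNFa libraries 77.7 and 544, against 18 to 68.5 with PBS. The CD8+ dendritic cell markers, averaged as log2 CPM, stood at 4.10, 5.67 and 3.74 in those IL1b libraries and at 2.47 and 4.42 in the TNFa libraries, so that the libraries with most Serpina3g also had most of these markers within their group. The PBS libraries of T.8 held 4.66 to 6.09. The part of these markers in the T.8 values was not tested.

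Serpina3f moved with Serpina3g in most cell types. It rose with IL1b in 7 of 10 tested types, with TNFa in 8 of 11 and with IL6 in 1 of 11, and was not tested in MC, GN and T.4, where its counts were near 0. In pDC with TNFa the log2 fold change was 4.40 ± 0.58, from 0.181, 0.211, 0.905, 1.03 and 4.76 CPM with PBS to 27.3, 28.7 and 31.9. It was 5.59 without PBS library 5, the highest of the PBS group, and 2.69 with all Serpina3 counts summed. In NK it went from 13.7, 15.3, 15.6, 26.2 and 38.2 CPM to 266, 296 and 396 with IL1b and 247, 305 and 324 with TNFa (3.87 ± 0.25 and 3.74 ± 0.25), leaving both PBS and IL6 (22.4 and 27.3) far below. In MFrp, TNFa gave 571, 640 and 1057 CPM against 32.6 to 86.1 with PBS.

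The other called changes of Serpina3f were 1.94 to 4.21 with IL1b (MFpc, MFrp, Mo.6C+, DC.8+, Tgd, MZB) and 1.82 to 3.95 with TNFa in the same types. Its call with IL6 in MFrp (1.43 ± 0.28) ended without the libraries that stood apart (1.21) and without any of 5 single libraries (IL6 1 to 3, PBS 1 or 4). In Treg and B.fo, where Serpina3g was called, Serpina3f was not: B.fo held 8.01 to 35.6 CPM with PBS and 20.9 to 39.5 with TNFa. Whether the responses of the 2 genes differ in those types was not tested.

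**Figure D3:**
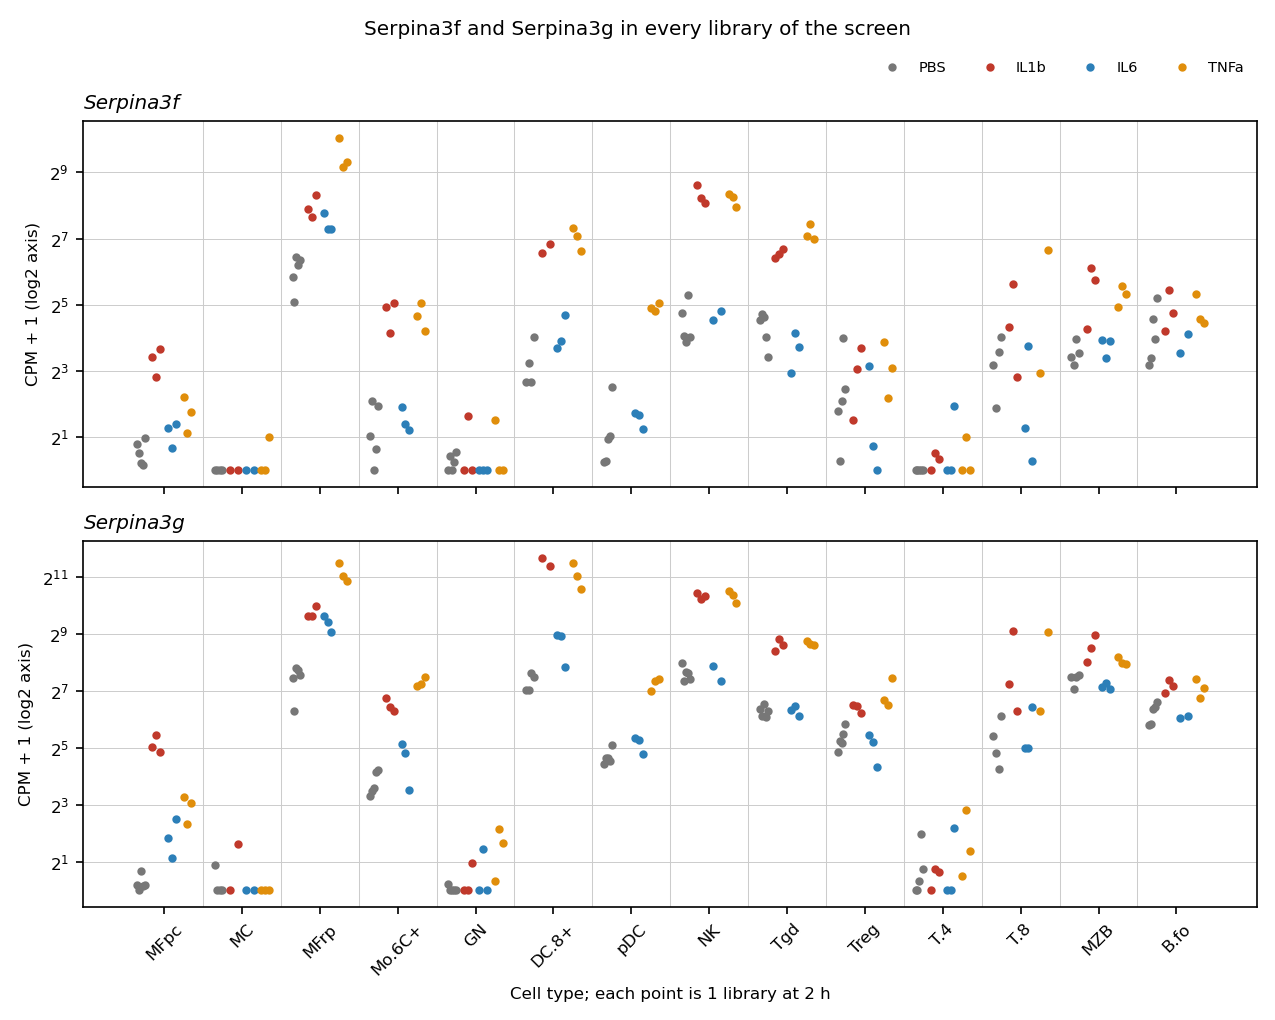
Serpina3f and Serpina3g in every screen library, as CPM + 1 on a log2 axis, by cell type and treatment (grey PBS, red IL1b, blue IL6, orange TNFa). The IL1b and TNFa points lie above the PBS points in NK, Tgd, DC.8+, MFrp, Mo.6C+ and MFpc, and T.8 shows 1 IL1b library at 552 and 1 TNFa library at 544 CPM of Serpina3g apart from the rest.

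Serpinb1a, the inhibitor of neutrophil serine proteases, changed in both directions. It was called in 16 of 41 comparisons, higher in 13 and lower in 3, beside 9.54% of all genes over the same comparisons. In all 16 the groups did not overlap, from which nothing is read, as above. In GN every cytokine library lay above every PBS library: PBS gave 19.7, 22.1, 27.7, 93.9 and 215 CPM, IL1b 516, 770 and 975, IL6 560, 613 and 829, and TNFa 667, 923 and 953. The log2 fold changes were 3.30 ± 0.57, 3.13 ± 0.57 and 3.47 ± 0.57, or 4.20, 4.02 and 4.37 without PBS library 1, the highest. The neutrophil list in the same libraries was 12.17 to 12.92 with PBS, 13.91 to 13.98 with IL1b, 12.84 to 13.04 with IL6 and 13.33 to 13.60 with TNFa, and its part in the rise was not tested.

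In T cells Serpinb1a rose from a few counts. In T.4 the PBS libraries held 0, 0, 0, 0.244 and 0.248 CPM (2 counts in all), the IL1b libraries 5.09, 8.78 and 11.1 and the IL6 libraries 2.8, 5.35 and 6.64. Over summed counts the ratios were 78.7 to 1 with IL1b (exact 95% interval 21.3 to 658) and 46.6 to 1 with IL6 (12.4 to 393). TNFa gave 0, 0 and 1.51 CPM in T.4 and was not called. In Treg the PBS libraries held 0 to 6.5 CPM, the IL1b libraries 25, 26.1 and 29.8 (log2 3.71 ± 0.67) and the TNFa libraries 6.6, 26 and 28.6 (3.30 ± 0.67). Without PBS library 2, the highest, these were 4.99 and 4.58. The IL6 libraries of Treg, at 10.7, 13 and 15.6 CPM, also lay above PBS but were not called.

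In DC.8+, Serpinb1a went from 13.2, 14.1, 15.8 and 20.8 CPM to 37.9 and 40.3 with IL1b, 38.4, 45.8 and 47.5 with IL6, and 72.9, 78.1 and 79.1 with TNFa. The IL6 change, 1.46 ± 0.21, came where 0.107% of all genes were called. Without the libraries that stood apart, the IL1b and IL6 calls ended (1.11 and 1.41; the IL6 call also without IL6 library 1 or 2 or PBS library 2), and the TNFa call held (2.09 against 2.26 ± 0.21), in libraries where the dendritic cell list was lower, as given above. MZB rose from 192, 207, 209 and 213 CPM to 486, 675 and 766 with IL1b (1.65 ± 0.14) and 362, 434 and 513 with TNFa (1.09 ± 0.14), while B.fo was not called.

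Serpinb1a fell in MFpc with IL1b and TNFa and in Mo.6C+ with IL1b. MFpc held 394, 434, 459, 522 and 573 CPM with PBS, 244, 244 and 289 with IL1b (log2 -0.88 ± 0.19) and 155, 223 and 373 with TNFa (-0.93 ± 0.19). Mo.6C+ held 21.2, 25.6, 31.3, 37.3 and 50.3 CPM with PBS and 15.4, 18 and 19.2 with IL1b (-0.91 ± 0.26), but 69.1, 84.1 and 115 with IL6 (1.43 ± 0.23). MFrp, the other macrophage, held 2.21 to 5.89 CPM with PBS and 7.73, 8.37 and 12.5 with IL1b, higher without overlap but not called. In mast cells, where it is most abundant, Serpinb1a ran from 8505 to 10858 CPM with PBS and from 7226 to 12789 over the cytokine libraries, and no change was called.

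Serpinb9, the granzyme B inhibitor, rose with TNFa in 7 cell types and fell in 1. NK went from 721, 777, 803, 896 and 920 CPM with PBS to 2505, 2558 and 3104 with TNFa (log2 1.73 ± 0.11) and 1568, 1684 and 2084 with IL1b (1.11 ± 0.11). DC.8+ went from 180, 239, 271 and 416 CPM to 1219, 1799 and 2072 with TNFa (2.62 ± 0.30, or 2.31 without the libraries that stood apart), while its IL1b libraries, at 187 and 390, stayed within the PBS range. The NK list in DC.8+ was 2.28 to 5.49 with PBS, 3.17 to 5.42 with TNFa and 0.68 to 0.71 with IL1b, while the dendritic cell list was lower with TNFa; their part in these values was not tested.

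In Mo.6C+, Serpinb9 held 3.13, 3.2, 4.54, 6.18 and 7.64 CPM with PBS and 34.8, 36.2 and 54.3 with TNFa (3.08 ± 0.41). The NK list in those libraries ran from -0.52 to 2.57 with PBS and from 2.10 to 4.06 with TNFa, overlapping ranges, and its part in the rise was not tested. MFrp rose by 1.85 ± 0.28 with TNFa, Tgd by 1.31 ± 0.24 and Treg by 1.42 ± 0.27. In T.4 all 3 cytokines raised Serpinb9, from 13.1 to 18.8 CPM with PBS to 22.7, 46.1 and 47.7 with IL1b (1.22 ± 0.25), 23.8, 32.7 and 39.3 with IL6 (0.94 ± 0.25) and 39.2, 40.5 and 46.9 with TNFa (1.35 ± 0.25). The IL6 call ended when any of 6 libraries was left out (IL6 2 or 3, PBS 1, 2, 3 or 5). With IL1b, Serpinb9 also rose in Treg (1.28 ± 0.27, lost without IL1b library 3) and Tgd (0.96 ± 0.25, with overlapping groups). The Tgd call ended without any of 6 libraries (IL1b 1 or 3, PBS 1 to 4), and its value was 0.87 without the library that stood apart. MFpc went from 9.82 to 14.1 CPM with PBS to 5.56, 7.22 and 8.16 with TNFa (-0.74 ± 0.26), a call that ended without TNFa library 2.

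Serpinb6b, the granzyme A inhibitor, had the fewest calls of the members, 7 in all. It rose with IL1b in 3 of 11 tested types and with TNFa in 4 of 12, and with IL6 in none of 12 (3 at an unadjusted p under 0.05 by edgeR, and none called by DESeq2). With the counts of the Serpinb6 genes summed, calls were made in 5 types with IL1b, 4 with TNFa and 1 with IL6. That sum includes Serpinb6a, whose mean over the screen libraries was 77.1 CPM, so it does not check Serpinb6b alone. In NK Serpinb6b went from 612, 658, 739, 792 and 845 CPM to 1327, 1378 and 1581 with IL1b (0.97 ± 0.10) and 1392, 1423 and 1560 with TNFa (1.00 ± 0.10). Treg rose by 1.31 ± 0.22 with IL1b and 1.12 ± 0.22 with TNFa, T.4 by 1.71 ± 0.33 with IL1b, and pDC by 1.37 ± 0.29 with TNFa. In Mo.6C+ its TNFa libraries held 2.68, 9.35 and 10.8 CPM and its PBS libraries 0.182 to 4.52, which overlapped. That call (2.19 ± 0.87) ended when any of 6 libraries was left out (PBS 1, 2, 4 or 5, TNFa 2 or 3). With the Serpinb6 genes summed, Serpinb6a among them, the value was 0.28, which does not check Serpinb6b alone. The NK list in the same TNFa libraries, in the same order, was 2.10, 3.02 and 4.06, against -0.52 to 2.57 with PBS. Its part in the Serpinb6b values was not tested.

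**Figure D4:**
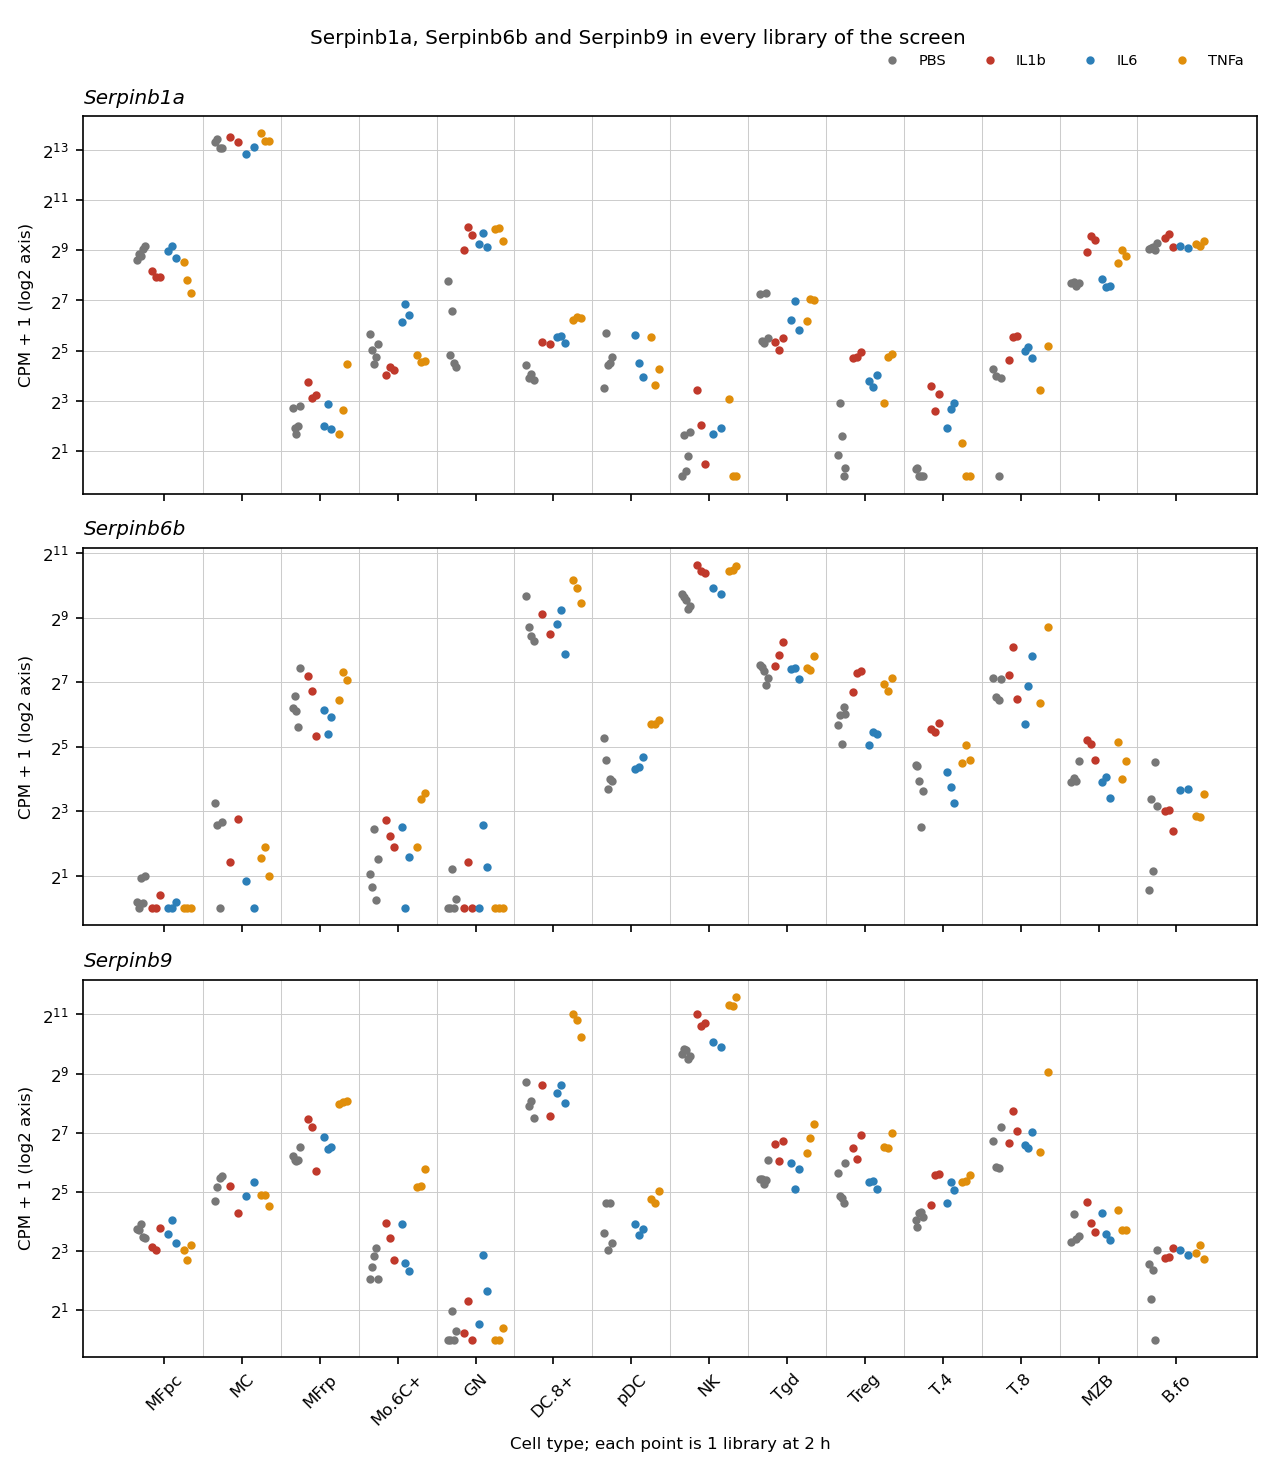
Serpinb1a, Serpinb6b and Serpinb9 in every screen library, as CPM + 1 on a log2 axis, by cell type and treatment (grey PBS, red IL1b, blue IL6, orange TNFa). Serpinb1a shows all GN cytokine libraries above the PBS libraries and no shift in MC, and Serpinb9 shows the TNFa libraries of NK and DC.8+ above 1000 CPM.

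The time course followed TNFa in 2 libraries per group, with PBS at 24 h as the only control for each time. Since these libraries and those of the LPS experiment may have entered the choice of members, their p-values describe the fits and are no independent support. All p-values here and below are edgeR quasi-likelihood p-values with Benjamini-Hochberg adjustment over all genes tested. In Mo.6C+, 4 of 5 members were higher at 2 h, 3 at 4 h and 2 at 8 h, 1 was lower at 8 h, and none was called at 24 h. The shares of all genes called were 40.3%, 32.5%, 22% and 4.46%, and at 24 h no member had an unadjusted p under 0.05 and DESeq2 called none. In MFpc, with 4 members tested, 2 were lower at 2 h, 2 higher and 1 lower at 4 h, 2 higher and 1 lower at 8 h, and 1 higher at 24 h. There 36.2%, 35.6%, 28.4% and 6.67% of all genes were called.

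Serpina3g rose in both cell types and was called in neither at 24 h. In Mo.6C+ the PBS libraries held 9.96 and 12.5 CPM, and the TNFa libraries 76 and 76.7 at 2 h (log2 2.76 ± 0.34, adjusted p = 6.34e-05), 254 and 316 at 4 h (4.66 ± 0.35, adjusted p = 3.73e-06) and 199 and 209 at 8 h (4.18 ± 0.35, adjusted p = 1.02e-05). At 24 h they held 7.02 and 17.5 CPM, on either side of PBS (adjusted p = 0.883). In the fit of both cell types together, no difference was called at 2 h (MFpc minus Mo.6C+, -0.39 ± 1.40, adjusted p = 0.91). In the screen, the MFpc change 2 h after TNFa was 4.98 ± 0.54 and was called. Here MFpc went from 0 and 0.676 CPM with PBS to 0.75 and 3.31 at 2 h (2.44 ± 1.01, adjusted p = 0.0747). It held 14.4 and 15.2 CPM at 4 h, 21.1 and 32.2 at 8 h, and 0 and 0.605 at 24 h. The 2 h change was called without PBS library 2 or without TNFa library 1. The PBS libraries of MFpc had 5 counts in all, every one in library 2, and the summed-count ratios were 42.6 to 1 at 4 h (exact 95% interval 17.9 to 133, adjusted p = 0.000299) and 74.6 to 1 at 8 h (31.7 to 231, adjusted p = 0.000142).

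Serpina3f was also raised in both cell types, at lower CPM than Serpina3g at 4 and 8 h, with the split of counts between them uncertain. The courses of the 2 genes were not tested against each other. In Mo.6C+ it held 0.398 and 4.03 CPM with PBS, 22.5 and 39.5 at 2 h (3.76 ± 0.66, adjusted p = 0.00082), 36 and 46.9 at 4 h (4.18 ± 0.66, adjusted p = 0.00046), 7.53 and 14.7 at 8 h (2.28 ± 0.66, adjusted p = 0.0264) and 0.702 and 1.58 at 24 h. The 8 h call ended without PBS library 2 or without TNFa library 2. The PBS libraries set the size of these values: without PBS library 1 they were 6.20, 6.62 and 4.73, and without PBS library 2 they were 2.93, 3.36 and 1.46. In MFpc it held 0.286 and 0.811 CPM with PBS, 0.661 and 1.12 at 2 h, 6.96 and 8.74 at 4 h (3.78 ± 0.65, adjusted p = 0.000643) and 5.92 and 8.53 at 8 h (3.65 ± 0.65, adjusted p = 0.00122), or 4.69 and 4.55 without PBS library 2. In the interaction test of both cell types together, the responses of Serpina3f and Serpina3g passed no threshold at any time with the main settings. The 2 h difference of Serpina3f, MFpc minus Mo.6C+, was -3.13 (adjusted p = 0.114). That difference was called with DESeq2, with no filter on low counts and when Mo.6C+ PBS library 1 was left out. It was not called with RLE size factors, the replicate block or copies summed, so whether the Serpina3f response differs at 2 h depends on the method.

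In the interaction test, a difference between the 2 cell types was called for Serpinb1a and Serpinb9. These calls describe the libraries used and are no independent support, as given above. At 2 h the change of Serpinb1a was lower in MFpc than in Mo.6C+ by a log2 difference of -2.60 ± 0.52 (adjusted p = 0.00359), and that of Serpinb9 by -4.26 ± 0.96 (adjusted p = 0.00866); 9.64% of all genes were called in that test. At 4 h Serpinb9 differed by -3.71 ± 0.93 (adjusted p = 0.0177), where 7.69% of genes were called. No member was called at 8 h or 24 h, against 9.03% and 2.89%; there none had an unadjusted p under 0.05, and DESeq2 called none. The 2 h difference of Serpinb9 ended without MFpc TNFa library 2 (-3.56) and was -5.57 without MFpc TNFa library 1, and its 4 h difference without any of 5 single libraries (MFpc PBS 1 and TNFa 1, Mo.6C+ PBS 1, PBS 2 and TNFa 1).

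In MFpc, Serpinb1a fell first and ended above PBS. The PBS libraries held 313 and 324 CPM, followed by 157 and 160 at 2 h (log2 -1.01 ± 0.22, adjusted p = 0.00317), 65.7 and 75.4 at 4 h (-2.18 ± 0.23, adjusted p = 1.36e-05), 199 and 348 at 8 h and 605 and 653 at 24 h (0.98 ± 0.22, adjusted p = 0.0157). The 8 h value was called when TNFa library 1 was left out. The 24 h call ended without either PBS library or without TNFa library 1. In Mo.6C+ the values were 11.8 and 19.3 CPM with PBS, 36.9 and 53.7 at 2 h (1.54 ± 0.47, adjusted p = 0.0196), 5.54 and 7.86 at 4 h, 9.32 and 29.7 at 8 h and 17.7 and 21.2 at 24 h. The 2 h rise ended without PBS library 2 or TNFa library 1. It goes against the screen, where Mo.6C+ held 22.7, 23.1 and 27.2 CPM 2 h after TNFa, inside the PBS range. The neutrophil list in Mo.6C+ of the time course was 0.62 to 0.82 with PBS and 5.34 to 5.44 at 2 h, 3.28 to 3.39 at 4 h, 3.61 to 3.87 at 8 h and 3.32 to 4.02 at 24 h; its part in the 2 h value of Serpinb1a was not tested.

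Serpinb9 rose in Mo.6C+ and fell in MFpc. Mo.6C+ held 4.03 and 5.38 CPM with PBS, 22.3 and 31.4 at 2 h (2.51 ± 0.62, adjusted p = 0.00686), 28 and 42.4 at 4 h (2.90 ± 0.62, adjusted p = 0.00355), 1.2 and 7.9 at 8 h and 3.16 and 6.16 at 24 h. The 2 h call ended without PBS library 1. The NK list was 0.37 to 1.24 with PBS, 1.22 to 2.52 at 2 h and -0.12 to 0.20 at 4 h, and its part in the Serpinb9 values was not tested. In MFpc, 11.8 and 13.7 CPM with PBS were followed by 1.54 and 6.19 at 2 h (-1.69 ± 0.62, adjusted p = 0.048) and 3.44 and 4.09 at 8 h (-1.76 ± 0.61, adjusted p = 0.046). The MFpc calls ended when single libraries were left out (PBS 1, PBS 2 or TNFa 2 at 2 h, and any of the 4 at 8 h), and the 2 h value ran from -3.02 without TNFa library 1 to -1.03 without TNFa library 2. Of the 8 NK markers, 7 had no count in either PBS library of MFpc and 7 had none at 8 h.

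Serpinb6b was scarce in the time course. In Mo.6C+ the PBS libraries held 2.38 and 2.39 CPM (25 counts in all), the 2 h libraries 2.28 and 14.4 (called only without TNFa library 1) and the 4 h libraries 2.56 and 3.47. Both 8 h libraries had no count, at least 5.16-fold lower than PBS with a floor of 3 counts per library (adjusted p = 0.0107), a call that ended without either 8 h library. The NK list was also at its lowest at 8 h, -0.71 to -0.46, with Gzma, Klre1 and Prf1 at 0, and its part was not tested. MFpc held at most 0.562 CPM in any library.

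**Figure D5:**
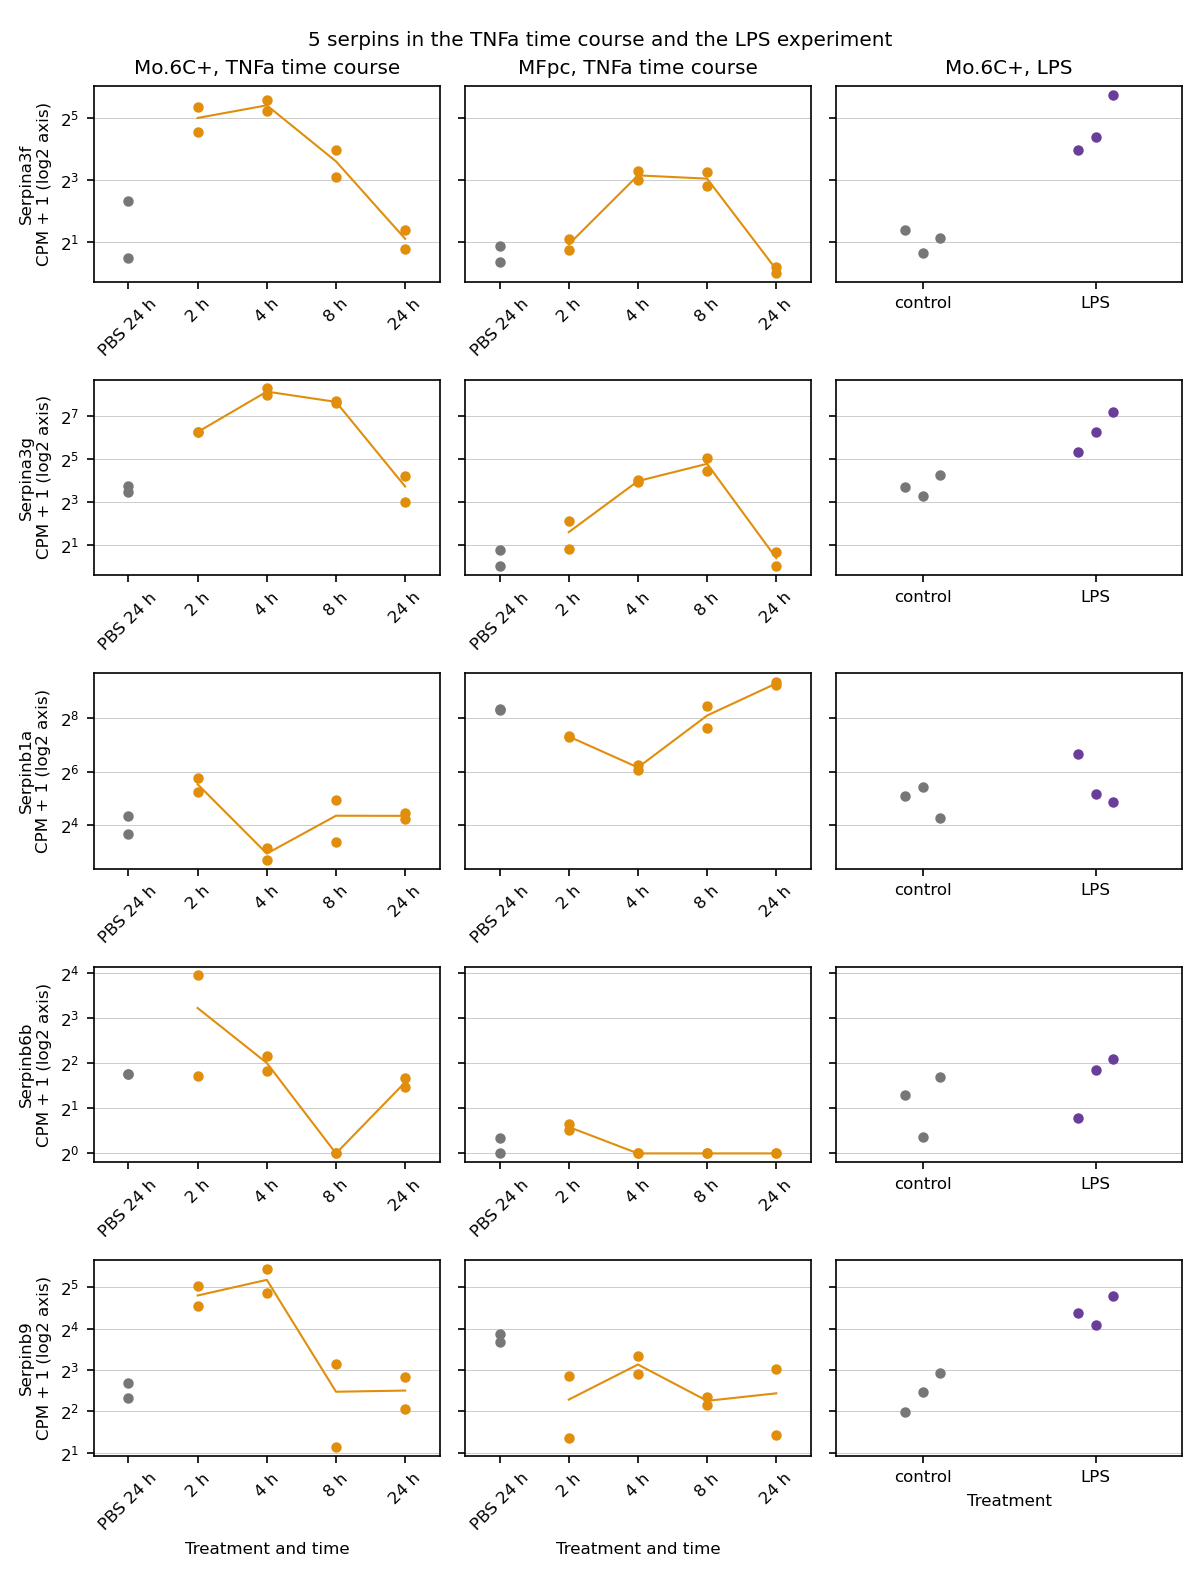
The 5 serpins in the TNFa time course of Mo.6C+ and MFpc and in the LPS experiment of Mo.6C+, as CPM + 1 on a log2 axis; each point is 1 library, lines join the TNFa means, and grey points are controls. Serpina3g in Mo.6C+ peaks at 254 and 316 CPM at 4 h and lies at 7.02 and 17.5 CPM at 24 h, and the lowest Serpinb1a points of MFpc are at 4 h.

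With LPS, a bacterial cell wall component, 3 of the 5 members rose in Mo.6C+, where 18.6% of all genes were called. Serpina3f went from 0.571, 1.2 and 1.62 CPM in controls to 14.7, 19.9 and 52.6 (log2 4.59 ± 0.63, adjusted p = 0.0011). Serpina3g went from 8.86, 12 and 18.1 CPM to 39.9, 76.2 and 149 (2.75 ± 0.49, adjusted p = 0.00394), and Serpinb9 from 2.92, 4.57 and 6.58 to 15.9, 19.6 and 26.4 (2.13 ± 0.44, adjusted p = 0.00882). For each of the 3 genes the lowest LPS library lay above the highest control, and each call held without any 1 library. Without LPS library 3, the highest of its group for each, the values of Serpina3f and Serpina3g were 3.86 and 2.16. Serpinb1a, at 28.4, 34.6 and 100 CPM with LPS and 18.1, 33.1 and 42 in controls, was not called (adjusted p = 0.287), nor was Serpinb6b (adjusted p = 0.634). The NK list was 0.98 to 2.53 with LPS and 0.08 to 1.70 in controls, and the neutrophil list 2.52 to 2.92 and 0.80 to 1.64; their part in the rise was not tested.

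Across the 55 group means of the screen, 4 of the members formed 2 pairs and Serpinb1a paired with none of the others. By Pearson's r of mean log2 CPM among 15406 genes, the gene most like Serpina3f was Serpina3g (r = 0.933) and the reverse, which shared reads could also raise. Next came BC035044 (0.783) and Cd83 (0.781) for Serpina3f, and Slamf7 (0.866) and Cd83 (0.863) for Serpina3g. Serpinb6b and Serpinb9 were each other's nearest gene (r = 0.849), followed by Gdpd5 (0.838) and Slc14a1 (0.833) for Serpinb6b and by Pogk (0.847) and Gm47662 (0.828) for Serpinb9. For Serpinb1a they were Ppp3ca (0.79), Rgs18 (0.765) and Nfu1 (0.761). These values describe groups that share cell types and libraries.

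Of the other 64 serpins, 18 could be tested in at least 1 cell type and 14 were called at least once. Over their 291 gene-by-comparison pairs, 31 were higher and 17 lower, or 16.5% called, against 9.54% of all genes and 40.3% for the members, which were chosen on these contrasts. The median log2 fold change was -0.01 for the other serpins and 0.92 for the members, beside an average median of -0.03 over all genes. Serpinb2, an inhibitor of plasminogen activators, was called most often (higher in 9 comparisons, lower in 2). In Mo.6C+ it went from 0.997 to 2.55 CPM with PBS to 569 to 913 with TNFa (log2 8.61 ± 0.27). Serpinb10 was higher in 3 comparisons and lower in 5, Serpinb8 higher in 2 and lower in 4, Serpinb6a lower in 4, and Serpine2 and Serpina3i each higher in 3, as was Serpina3h, which had a lower mean level. In DC.8+, Serpinb8, Serpinb2 and Serpinb10 fell with TNFa (-4.03 ± 0.48, -2.69 ± 0.45 and -2.58 ± 0.44). Serpina3i (6.54 ± 1.11), Serpina3g and Serpinb9 rose there, in libraries where the dendritic cell list was lower, as given above. Serpinb2 and Serpinb10 overlap on the plus strand of chromosome 1, and whether their falls are separate was not tested.

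The proteases that serpins of this kind act on were taken from a list of 14. All 14 listed granzymes, cathepsins and neutrophil or mast cell proteases were tested in some cell type; 30 of 301 pairs were higher and 12 lower, 14% in all against 9.54% of all genes, with a median log2 fold change of 0.04. The most often called were the lysosomal cathepsins Ctsl (6 higher, 2 lower), Ctsh (4 and 4), Ctsc (6 and 1), Ctsb (5 and 0) and Ctss (3 and 1). In GN, where Serpinb1a rose, Ctsb rose by 2.46 ± 0.16 and Ctsc, which activates neutrophil serine proteases, by 2.54 ± 0.40 with TNFa. Gzmb, the protease that Serpinb9 inhibits, was called in as many comparisons as Ctss and is named for that reason after its values were seen. Of the other targets named above, Prtn3 (proteinase 3) was higher in 1 and lower in 2 of 9 comparisons and Gzma higher in 1 of 18, while Ctsg was called in 0 of 9 and Elane in 0 of 3. In NK, Gzmb went from 615 to 953 CPM with PBS to 1269 to 1917 with TNFa (0.99 ± 0.13) and 1094 to 1300 with IL1b (0.60 ± 0.13), and in Treg it rose by 2.54 ± 0.42 with IL1b. Gzmb also rose in Mo.6C+ with TNFa (2.86 ± 1.01), in the libraries whose NK list is given above with Serpinb9. The part of NK cells in that rise was not tested.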

How the data were processed

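RNA of 209 sorted cell samples was analysed from the table of raw counts per gene symbol that the authors deposited. The submitters' processing notes name STAR 2.7.3a, featureCounts and mm10; the annotation, strand setting and treatment of multi-mapping reads are not given in the sources used. Testing used edgeR 4.0.16 under R 4.3.3, with TMM, filterByExpr, glmQLFit and glmQLFTest, Benjamini-Hochberg over all genes tested, threshold 0.05. SE is the log2 fold change divided by sqrt(F). Fits were made per cell type over its screen libraries, per cell type of the time course, over both types for the interaction, and for LPS. The count test was tested on simulated counts. Totals ran from 1094567 to 9291121, which limits the precision for low genes. Members and lists were chosen with earlier results of these data known. Named besides the members were the 6 other serpins called most often (ties by mean CPM), up to 5 proteases called most often, Serpina3h and 5 further proteases chosen after their values were seen, the 3 genes most like each member, and markers that moved with a result. Alternatives were RLE size factors, no filter on low counts, DESeq2 1.42.0, a replicate block, summed copies, 2 groups per fit, each library left out, and libraries that stood apart left out. Replicate numbers were not taken as a pairing of samples.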

Additional observations from a re-analysis of the deposited data

Results flagged for a closer look

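Among 55 PBS groups of a member, 4 held a library far from the others of its group (Dixon's test at 95%, which flags about 1 group in 20 by chance). Serpina3g stood at 78.2 CPM in MFrp PBS 2 against 177 to 225 in the other 4 libraries, and at 135 CPM in MZB PBS 2 against 179 to 187. Serpinb1a stood at 0 CPM in T.8 PBS 3 against 14.3 to 18.6, and Serpinb9 at 66.3 CPM in Tgd PBS 5 against 37.9 to 42.3.

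Differences in the TNFa response between peritoneal macrophages and monocytes were called by edgeR's interaction test. They were called for Serpinb1a at 2 h (-2.60, adjusted p = 0.00359) and for Serpinb9 at 2 h (-4.26, adjusted p = 0.00866) and 4 h (-3.71, adjusted p = 0.0177). These libraries may have entered the choice of members, so the p-values describe the fits only. In the Mo.6C+ libraries of that test Serpinb1a was higher at 2 h (1.54), while in the screen its value in Mo.6C+ with TNFa was -0.45 and not called. The neutrophil list in Mo.6C+ went from 0.62 to 0.82 with PBS to 5.34 to 5.44 at 2 h, and its part was not tested. The Serpinb9 differences ended when single libraries were left out, MFpc TNFa library 2 at 2 h and any of 5 at 4 h. In the screen, Serpinb1a changed with IL1b by -0.88 in MFpc and -0.91 in Mo.6C+, opposite to GN, DC.8+, Treg, T.4 and MZB, and with TNFa by -0.93 in MFpc, opposite to GN, DC.8+, Treg and MZB. Serpinb9 changed with TNFa by -0.74 in MFpc, opposite to 7 other cell types. In these screen cases each group lay wholly on its side of PBS, and the difference between cell types was not tested.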

How the results depend on the processing

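Of 98 called fold changes of the members, 98 kept their call with DESeq2 and with no filter on low counts, 97 with RLE size factors and 96 with copies summed, and none of these settings, nor leaving out a library, reversed a sign. With each cell type's 2 groups fitted alone, 68 of 71 kept it, and without the 11 libraries that stood apart, 25 of 29. With copies summed, Serpina3f and Serpina3g have the same row, so that setting does not check the split of reads between them. Of 73 screen calls, 62 held whichever library was left out. The number of cell types called with IL6 changed for Serpina3f (1; 2 with copies summed, 0 with 2 groups only and 0 without the libraries that stood apart), Serpina3g (2; 4 with no filter on low counts, 1 with 2 groups only) and Serpinb9 (1; 0 with 2 groups only and 0 with the replicate block). With copies summed, the row of Serpinb6b also holds Serpinb6a and the other Serpinb6 genes. That row was called in 5 cell types with IL1b instead of 3 and in 1 with IL6 instead of 0. With copies summed, 1 member instead of 0 was called in Mo.6C+ at 24 h. In MFpc at 24 h, 2 members instead of 1 were called with copies summed or with no filter on low counts. Without normalization beyond library totals, the mean of Serpinb9 in NK was 836 CPM instead of 742. With 1 library left out, the calls ran from 0 to 1 for Serpina3f and for Serpinb9 with IL6, from 1 to 3 members in MFpc at 2 h, 0 to 2 in MFpc at 24 h, 1 to 3 in Mo.6C+ at 8 h (1 without TNFa library 2), 1 to 3 in the interaction at 2 h and 0 to 1 at 4 h. The cause of these changes was not tested. The replicate block kept 90 of 98 calls; same-numbered libraries deviated together with a mean r of 0.00 over 353 pairs (-0.28 to 0.33), so the numbers were not taken as a pairing and these values are no paired analysis. With a library left out of the time course, the lone library is assumed to vary like the other groups. Genes with few counts in PBS cells, such as Serpina3g in MFpc and Serpinb1a in T.4, have folds limited by counting error.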
